A study of Mus musculus with 6 samples.

Results

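The p53 pathway was examined in LSKs (Lin- Sca-1+ c-Kit+ cells of the bone marrow, the fraction that holds hematopoietic stem and early progenitor cells) from irradiated mice. The members are 38 genes, chosen by name, that encode p53 (Trp53), its regulators and its commonly cited target genes; all 38 were found once among the 55487 genes of the deposited table. Libraries came from 3 Tespa1+/+ (wild type) and 3 Tespa1-/- (Tespa1 knock out, allele B6.129S-Tespa1tm1Smoc) samples. Mice were males of C57BL/6 background aged 8 to 10 weeks, the knockout line having been backcrossed for more than 6 generations, and LSKs were taken at day 13 after 5.0 Gy total body irradiation. Because both groups were irradiated, the values compare genotypes after irradiation and do not measure the response to irradiation. The sources used here do not say if each replicate came from a single mouse or from pooled mice, so p-values measure only the spread between these samples.

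p53 is a transcription factor that is held low by the ubiquitin ligase Mdm2 and its partner Mdm4, and that DNA damage stabilises through the kinases Atm, Atr, Chek1 and Chek2. It then activates genes for cell cycle arrest, apoptosis, DNA repair and metabolism, and also its own inhibitors, which closes a feedback loop. In hematopoietic stem and progenitor cells p53 is known for setting sensitivity to radiation and for keeping stem cells out of cycle. Several of its targets, such as Plk2, Plk3, Btg2 and Gadd45a, are also known to respond to growth signals or other stress without p53.

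The total count per library ranged from 12856630 to 30576981. Tespa1 itself had 34.5, 32.7 and 36.0 CPM (read counts scaled to library size with TMM factors) in Tespa1+/+ and 15.3, 14.3 and 14.2 CPM in Tespa1-/- libraries, so its transcript was lower but still counted in the knockout. The 9 LSK markers (stem and progenitor genes such as Kit and Ly6a, the gene of Sca-1) were counted in both groups, and their summed level was 1180 to 1210 CPM in Tespa1+/+ and 640 to 659 CPM in Tespa1-/- libraries, and 8 of 9 were called lower. The 8 neutrophil markers, all called higher, summed to 20.9 to 23.7 CPM in Tespa1+/+ and to 469 to 495 CPM in Tespa1-/- libraries, and none of the 8 was at 0 in all libraries of a group. The ranges in Tespa1+/+ and Tespa1-/- libraries were 171 to 194 and 249 to 259 CPM for 8 B cell and plasma cell markers, 13.8 to 15.2 and 7.03 to 8.22 CPM for 6 T cell markers, 787 to 804 and 676 to 708 CPM for 6 monocyte and macrophage markers, 223 to 246 and 372 to 399 CPM for 7 erythroid markers, and 72.4 to 80.2 and 61.1 to 63.9 CPM for 5 megakaryocyte markers. Within 2 of these lists the genes were called in both directions. Of the erythroid markers, Hba-a1, Hbb-bs and Tfrc were higher and Klf1, Car1 and Epor lower, and Tfrc made up most of the sum (197.7 and 346.2 CPM on average). Of the B cell and plasma cell markers, 1 was called higher (Jchain) and 4 lower. Ms4a1, Cd3e and Ppbp had no count in any Tespa1-/- library. They were near the floor in Tespa1+/+ libraries too, with 2, 0 and 3 counts for Ms4a1, 8, 7 and 4 for Cd3e, and 5, 5 and 3 for Ppbp. None of them passed the filter on low counts. The marker lists move with the genotype beside every result below, and their part in the results was not tested. In bulk RNA, fewer cells of a type and less RNA per cell cannot be told apart.

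Fold change was also related to gene length across the whole table. The median log2 fold change of Tespa1-/- over Tespa1+/+ was 0.54 in the decile of tested genes with the shortest exons and -0.56 in the decile with the longest. The main results are therefore given with and without a length correction, which takes the length trend out of each library, and the part of length in any single gene was not tested beyond this.

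The share of pathway members that differed between the genotypes was near that of all genes. A gene was called at a fold over 1.5 with an edgeR adjusted p under 0.05, and 33.3% of the 15332 genes tested were called. Of the 37 members tested, 3 were called higher and 7 lower in Tespa1-/- LSKs, that is 27% of them, against 14% and 19.2% of all genes called higher and lower. The median log2 fold change of the tested members was -0.16, beside 0 for all genes tested. By adjusted p alone, with no minimum fold, 9 members were higher and 15 lower, where 63.3% of all genes passed. The groups did not overlap for 26 of the 37 members, against 69.1% of all genes. With the length correction, 1 member was called higher and 6 lower, where 23.6% of all genes were called (8.32% higher and 15.3% lower), and the member median was -0.05 beside 0.02 for all genes.

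**Figure D1:**
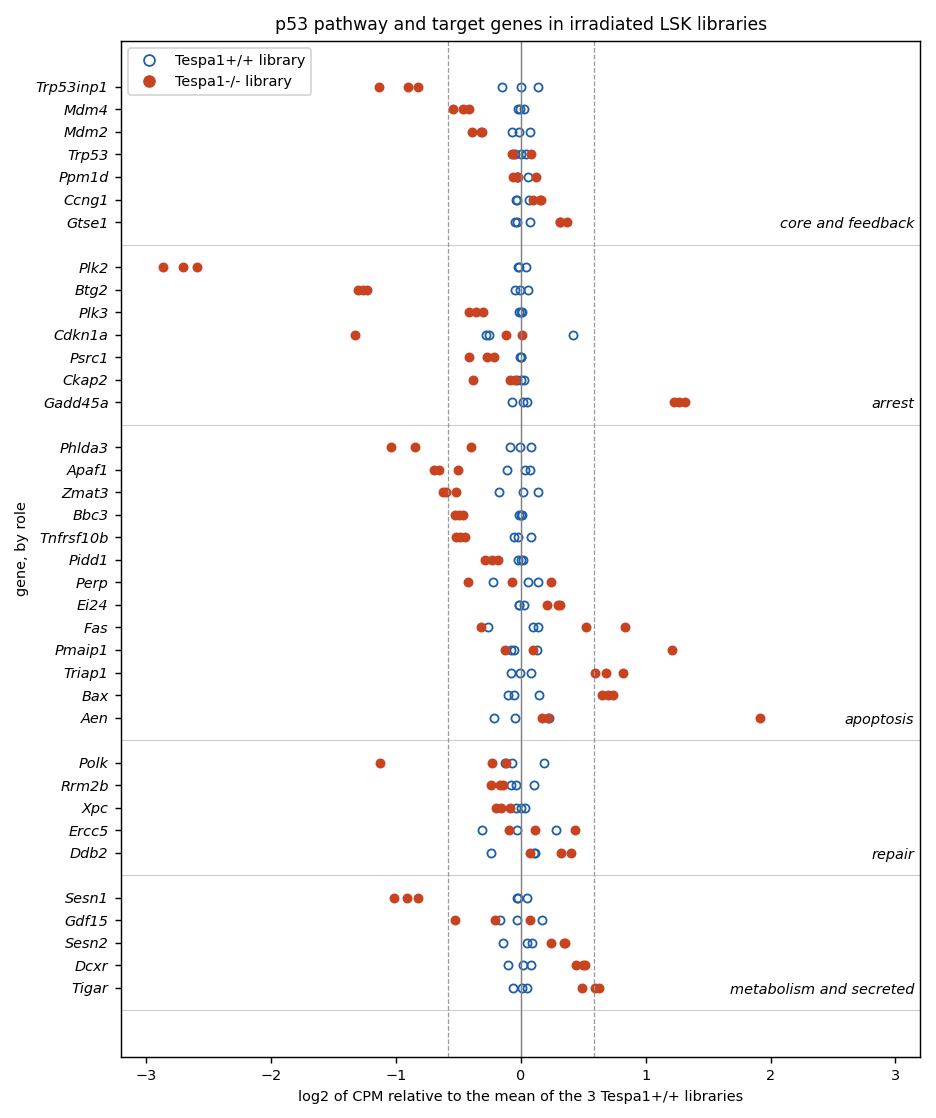
Each point is 1 library; the x axis gives the log2 ratio of its CPM to the mean of the 3 Tespa1+/+ libraries, and genes are grouped by role on the y axis, with dashed lines at a fold of 1.5. Plk2, Btg2, Sesn1 and Trp53inp1 lie to the left and Gadd45a to the right in all 3 Tespa1-/- libraries, while Cdkn1a, Pmaip1, Aen and Polk each have a single Tespa1-/- library far from the others. Eda2r, which was not tested, is left out.

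The core of the pathway was examined first. Trp53 itself had 215, 221 and 207 CPM in Tespa1+/+ and 205, 206 and 227 CPM in Tespa1-/- libraries. The groups overlapped and the log2 fold change was -0.02 (SE 0.05, adjusted p 0.793 in edgeR). On a scale per length, p53 mRNA was among the most abundant of the members, at 53.1 CPM per kb of exon in Tespa1+/+ and 52.5 CPM per kb in Tespa1-/- LSKs.

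Both p53 inhibitors were somewhat lower without reaching the fold required. Mdm2, the ligase that marks p53 for degradation and is itself a p53 target, had 84.4, 79.4 and 76.4 CPM in Tespa1+/+ and 64.4, 64.6 and 61.0 CPM in Tespa1-/- libraries. All 3 Tespa1-/- values lay below all Tespa1+/+ values, with a log2 fold change of -0.34 (SE 0.05, adjusted p 8.7e-04 in edgeR) that was -0.19 (adjusted p 0.0179) after the length correction. Mdm4, which binds and silences the p53 activation domain, was at 182 ± 2.93 CPM in Tespa1+/+ and 131 ± 5.84 CPM in Tespa1-/- LSKs (mean ± SD, n = 3). With exons of 14798 bases in all, Mdm4 is the longest member, and its log2 fold change of -0.47 (adjusted p 5.3e-05 in edgeR) turned to 0.16 (adjusted p 0.00937) with the length correction. Its direction therefore depends on how length is treated.

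Of the other feedback genes, only Trp53inp1 was called. This was 14.3% of the 7 core and feedback genes, against 33.3% of all genes. Trp53inp1, a nuclear protein that promotes p53 phosphorylation and cell death (GRCm38 chr4:11156431-11174379), had 17.3, 14.1 and 15.7 CPM in Tespa1+/+ and 8.40, 7.16 and 8.87 CPM in Tespa1-/- libraries. The groups did not overlap, and the gene fell by 0.95 on the log2 scale (SE 0.12, adjusted p 3.4e-04 in edgeR), or by 0.68 (adjusted p 0.00233) with the length correction. Ppm1d (Wip1, the phosphatase that switches off the damage kinases and p53) was at 33.5 ± 1.14 and 33.7 ± 2.33 CPM (mean ± SD, n = 3), a difference within the replicate spread. Ccng1 (cyclin G1, a partner of the phosphatase that activates Mdm2) had a log2 fold change of 0.14 and Gtse1 (which shuttles p53 out of the nucleus in G2) of 0.33, both with an adjusted p under 0.05 and a fold under 1.5.

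The tested genes with the largest differences belong to the arrest group. In this group 1 of 7 was called higher and 2 lower (42.9%, against 33.3% of all genes). All 3 calls were also made with the length correction. The 250 bases before the RefSeq transcription start (build GRCm38.p6) of the 2 that were lower, Plk2 and Btg2, and of Cdkn1a, the classical arrest gene, are shown 5′ to 3′ because the matches described next lie in them, with capitals for the cyclic AMP response element TGACGTCA or its shorter core TGACG on either strand and for the p53 decamer, the unit of which a p53 site holds a pair.
Plk2 (chr13:110394794-110395043, plus strand): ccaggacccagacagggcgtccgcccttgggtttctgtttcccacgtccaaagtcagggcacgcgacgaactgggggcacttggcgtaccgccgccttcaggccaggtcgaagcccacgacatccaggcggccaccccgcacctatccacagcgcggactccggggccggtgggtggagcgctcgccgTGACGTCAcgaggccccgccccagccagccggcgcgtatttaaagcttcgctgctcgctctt
Btg2 (chr1:134079156-134079405, minus strand): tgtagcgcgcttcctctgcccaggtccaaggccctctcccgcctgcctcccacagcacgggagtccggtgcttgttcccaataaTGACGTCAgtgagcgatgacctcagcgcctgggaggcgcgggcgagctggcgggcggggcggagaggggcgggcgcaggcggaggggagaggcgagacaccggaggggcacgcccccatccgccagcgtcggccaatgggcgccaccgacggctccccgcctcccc
Cdkn1a (chr17:29090729-29090978, plus strand): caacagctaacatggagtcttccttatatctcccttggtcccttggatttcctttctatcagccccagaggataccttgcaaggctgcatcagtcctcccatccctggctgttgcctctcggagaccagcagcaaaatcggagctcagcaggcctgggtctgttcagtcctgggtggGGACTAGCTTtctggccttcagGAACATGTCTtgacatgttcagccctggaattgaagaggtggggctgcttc

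The letters were searched for on both strands in these windows; TGACGTCA contains TGACG on each strand, so the matches overlap. Promoters of 30 of the 38 members matched by symbol, and a gene with several starts was counted once. The shares of all windows given below count each start, so they are not on the scale of the counts of members. TGACGTCA was found for Plk2 (62 to 55 bases before the start), Btg2 (166 to 159 bases before) and Ppm1d, against 1.55% of all 32851 windows. Among the members tested, Plk2 and Btg2 had the largest and the next largest fall, and Ppm1d, which hardly differed, has it too. A p53 decamer was found for 12 of the 30 members, among them Gadd45a, Bax, Sesn1 and Mdm2, and in 7.13% of all windows. The members were chosen by name as p53 regulators and targets, and this count was not tested. The match of Gadd45a lies 40 to 31 bases before the RefSeq start, which is inside the first exon by the GENCODE annotation. The decamers of Ei24, Aen, Sesn1 and Polk also lie within the annotated gene, those of Sesn1 and Polk before a start far inside it. TGACG alone was found for 10 members (17.8% of all windows) and the CArG box, a serum response element, for Tigar (1.47%). A pair of decamers with a spacer was found only for Cdkn1a (73 to 42 bases before this start, 1 of its 2 RefSeq starts), against 0.0639% of all windows. These matches are descriptions of letters and not of binding.

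Plk2, a polo-like kinase of the S phase checkpoint (GRCm38 chr13:110395046-110400844), showed the largest difference of the 37 members tested. It had 82.5, 86.1 and 82.9 CPM in Tespa1+/+ libraries and 11.5, 13.9 and 12.8 CPM in Tespa1-/- libraries. Each Tespa1-/- library was far below each Tespa1+/+ library, 6.59-fold in the fit (log2 fold change -2.72, SE 0.07, adjusted p 9.1e-07 in edgeR), and the value was -2.63 with the length correction. Its relative Plk3 was at 45.4 ± 0.322 and 35.4 ± 1.34 CPM (mean ± SD, n = 3), a log2 fold change of -0.36 (adjusted p 5.9e-04 in edgeR) that misses the fold required.

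Btg2, an antiproliferative co-factor of mRNA deadenylation (GRCm38 chr1:134075170-134079120), was the most abundant member per length in Tespa1+/+ LSKs at 54.9 CPM per kb. It had 146, 156 and 150 CPM in Tespa1+/+ and 60.9, 64.2 and 62.7 CPM in Tespa1-/- libraries. The fall of 1.27 on the log2 scale (SE 0.04, adjusted p 1.3e-06 in edgeR) was 1.38 with the length correction.

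Gadd45a, a stress protein that acts in G2/M arrest and in repair (GRCm38 chr6:67035096-67037457), was the only member whose rise was called in both fits. It had 29.3, 31.2 and 31.7 CPM in Tespa1+/+ and 73.9, 71.7 and 76.5 CPM in Tespa1-/- libraries. The level was 2.41-fold higher (log2 fold change 1.27, SE 0.05, adjusted p 2.3e-06 in edgeR), and 1.03 on the log2 scale with the length correction. An antisense gene, E230016M11Rik, overlaps its exons, so part of the count is uncertain if counting ignored the strand. Exons of Cdkn1a, Plk3, Ei24, Ddb2, Rrm2b and Tigar also overlap antisense genes, with the same limit.

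Cdkn1a (p21, the CDK inhibitor through which p53 halts the cycle) could not be placed because its libraries scattered. It had 62.9, 62.1 and 100.4 CPM in Tespa1+/+ and 75.5, 69.2 and 30 CPM in Tespa1-/- libraries. The groups overlapped, and the log2 fold change of -0.36 had an SE of 0.34 (adjusted p 0.396 in edgeR). Without Tespa1-/- replicate 3 it was -0.04 and without Tespa1+/+ replicate 3 it was -0.09, so these libraries set the size of the value.

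Ckap2 and Psrc1 code for spindle proteins that peak in mitosis. Psrc1 was at 21.6 ± 0.106 CPM in Tespa1+/+ and 17.5 ± 1.20 CPM in Tespa1-/- LSKs (mean ± SD of 3 libraries each; log2 fold change -0.30, adjusted p 0.00879 in edgeR). Ckap2 had a log2 fold change of -0.16 (adjusted p 0.149 in edgeR). Neither had the direction of Gtse1, another gene that peaks in G2/M.

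**Figure D2:**
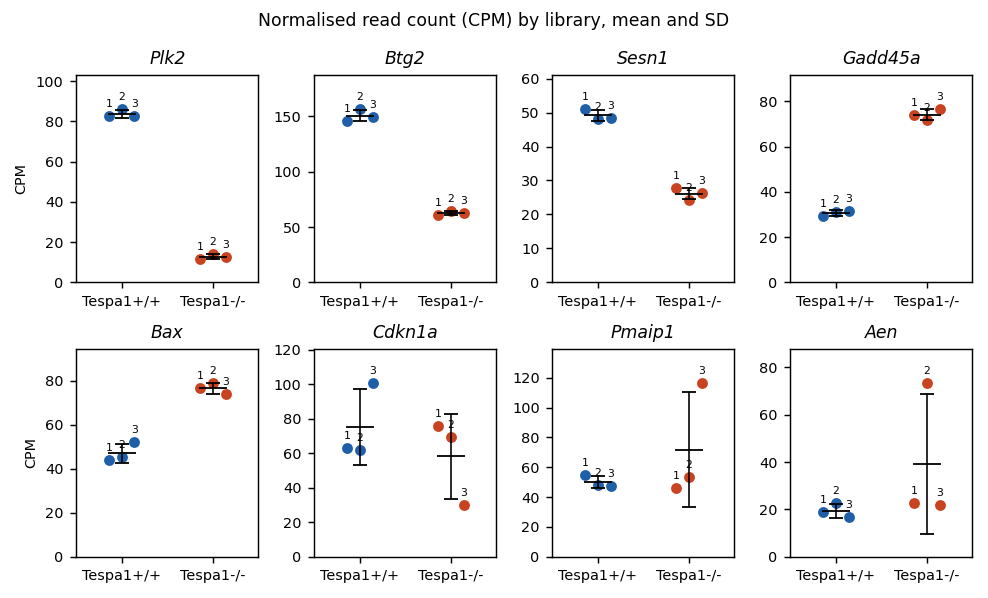
Points give the CPM of each library, numbered by replicate, for 8 members; the bar is the mean and the whiskers the SD of 3 libraries per group, and each axis starts at 0. The groups stand apart for Plk2, Btg2, Sesn1, Gadd45a and Bax, while single libraries stand apart for Cdkn1a (Tespa1+/+ replicate 3 at 100.4 CPM and Tespa1-/- replicate 3 at 30 CPM), Pmaip1 (Tespa1-/- replicate 3 at 116 CPM) and Aen (Tespa1-/- replicate 2 at 73.2 CPM).

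Apoptosis genes were called both ways without the length correction, as were all genes tested (14% called higher and 19.2% lower). Of 14 apoptosis genes, 13 were tested, and 2 were called higher and 3 lower (38.5%, against 33.3% of all genes). With the length correction 0 were called higher and 2 lower, where 8.32% and 15.3% of all genes were. Bax, the effector that permeabilises mitochondria, had 43.9, 45.5 and 52.0 CPM in Tespa1+/+ and 76.7, 78.8 and 74.1 CPM in Tespa1-/- libraries. All 3 Tespa1-/- values were higher, with a log2 fold change of 0.70 (SE 0.07, adjusted p 1.1e-04 in edgeR). Triap1, a small inhibitor of apoptosome activation, rose as well, from 23.1 ± 1.25 to 37.4 ± 2.92 CPM (mean ± SD of 3 libraries each; log2 fold change 0.70, adjusted p 1.8e-04 in edgeR). Both are short, with exons of 1576 and 1088 bases, and in their length deciles 23.1% and 32.4% of all genes were called higher. With the length correction their log2 fold changes were 0.43 and 0.36, which still had an adjusted p of 0.00127 and 0.00698 but missed the fold. Exons of Bax also overlap Gm45808 on the same strand.

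The BH3-only genes, whose products act upstream of Bax, were not called higher. Bbc3 (Puma) had 23.8, 24.1 and 24.3 CPM in Tespa1+/+ and 17.4, 16.7 and 17.1 CPM in Tespa1-/- libraries. The groups were tight and did not overlap, and the log2 fold change of -0.50 (SE 0.06, adjusted p 2.7e-04 in edgeR) was a 1.41-fold difference, under the fold required, and the gene was called lower with the length correction (-0.69, adjusted p 8.6e-05). Pmaip1 (Noxa) had 54.7, 48.2 and 47.3 CPM in Tespa1+/+ and 45.7, 53.7 and 116 CPM in Tespa1-/- libraries. Its log2 fold change of 0.51 (adjusted p 0.208 in edgeR) rested on Tespa1-/- replicate 3, without which it was 0.

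Apaf1, the scaffold of the apoptosome, fell from 82.6 ± 5.48 to 53.9 ± 3.71 CPM (mean ± SD of 3 libraries each; log2 fold change -0.61, adjusted p 2.1e-04 in edgeR), and Zmat3, an RNA-binding protein that tempers the p53 response, from 6.47 ± 0.699 to 4.33 ± 0.167 CPM (log2 fold change -0.59, adjusted p 0.00390 in edgeR). These have long exons of 9028 and 11435 bases, and in their length deciles 33.2% and 46.4% of all genes were called lower. Their values were -0.19 and -0.05 with the length correction, neither past the fold. Both calls lie at the fold threshold and Apaf1 lost it without Tespa1+/+ replicate 2 (-0.57) or Tespa1-/- replicate 2 (-0.57), as did Zmat3 without Tespa1+/+ replicate 1 (-0.58) or 2 (-0.50) or Tespa1-/- replicate 2 (-0.56) or 3 (-0.57).

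Phlda3, a short gene whose product restrains Akt, fell from 2.48 ± 0.144 to 1.49 ± 0.348 CPM (mean ± SD, n = 3) and was at -0.71 on the log2 scale (SE 0.19, adjusted p 0.0153 in edgeR) and at -0.97 with the length correction. Its counts were only 15 to 74 per library, and the call was not made by DESeq2 (adjusted p 0.105) or without Tespa1-/- replicate 2 (adjusted p 0.0546 in edgeR) or 3 (adjusted p 0.0509 in edgeR). Of the death receptors, Tnfrsf10b (the TRAIL receptor) had a log2 fold change of -0.48 (adjusted p 0.00209 in edgeR), under the fold required, and Fas had only 10 to 29 counts per library and overlapping groups. Eda2r, a TNF receptor of the ectodysplasin family, had 13, 11 and 7 counts in Tespa1+/+ and 0, 1 and 0 in Tespa1-/- libraries and did not pass the filter on low counts. Its summed count scaled to library size was 21.1-fold higher in Tespa1+/+ (exact 95% binomial interval 3.52 to 860, counting error only), so the size of the difference is hardly known.

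Pidd1, the scaffold of the PIDDosome, differed by -0.23 on the log2 scale (adjusted p 0.00527 in edgeR), and Ei24, a membrane protein of the endoplasmic reticulum, by 0.28 (adjusted p 0.00142 in edgeR), both with a fold under 1.5. Perp, a tetraspan protein of cell junctions, was at 2.59 ± 0.325 and 2.49 ± 0.568 CPM (mean ± SD, n = 3) with overlapping groups. Aen, an apoptosis-enhancing nuclease, had 18.8, 22.7 and 16.7 CPM in Tespa1+/+ and 22.5, 73.2 and 21.8 CPM in Tespa1-/- libraries. Tespa1-/- replicate 2 alone stood apart: the log2 fold change was 1.01 (SE 0.47, adjusted p 0.0986 in edgeR) with it and 0.19 (adjusted p 0.264 in edgeR) without it, and the gene passed the threshold without Tespa1-/- replicate 1 (adjusted p 0.0495 in edgeR) or 3 (adjusted p 0.0459 in edgeR).

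Single libraries of this kind were counted after the values were seen. Among members with a mean count of at least 100, 4 of 33 (12.1%) had 1 library over 1.5-fold away from both others of its group, which lay within 1.5-fold of each other, and these were Cdkn1a, Pmaip1, Aen and Polk. Over all genes with such a count the share was 5.94% of 10821. The value that stood apart was in Tespa1-/- replicate 3 for Cdkn1a and Pmaip1, in replicate 2 for Aen and in replicate 1 for Polk, and for Cdkn1a also in Tespa1+/+ replicate 3. Without Tespa1-/- replicate 1 the log2 fold change of Polk was -0.17 (adjusted p 0.318 in edgeR).

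None of the 5 repair genes was called by edgeR (0%, against 33.3% of all genes), and DESeq2 called 0, against 29.4% of all genes. In edgeR 1 of them, Xpc, had both an unadjusted and an adjusted p under 0.05, with a fold under 1.5. By adjusted p alone 63.3% of all genes passed in edgeR. Xpc, which finds bulky lesions, was the most abundant at 114 ± 2.91 CPM in Tespa1+/+ and 103 ± 4.04 CPM in Tespa1-/- LSKs (mean ± SD of 3 libraries each; log2 fold change -0.15, adjusted p 0.0184 in edgeR), and it was at 0.04 with the length correction. Ddb2, the damage sensor of the same pathway, had 10.3, 13.1 and 13.1 CPM in Tespa1+/+ and 15.3, 16.05 and 12.8 CPM in Tespa1-/- libraries, with overlapping groups and a log2 fold change of 0.27 (adjusted p 0.105 in edgeR). Exons of Acp2 overlap Ddb2 on the other strand. Ercc5, the nuclease that cuts 3′ of the lesion, was at 0.15 (adjusted p 0.503 in edgeR) and Polk, a translesion polymerase, at -0.44 (adjusted p 0.154 in edgeR) on the log2 scale. Rrm2b, the p53-induced subunit of ribonucleotide reductase, was at -0.18 (adjusted p 0.125 in edgeR), and at 0.25 (adjusted p 0.0482) with the length correction.

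Of the 5 metabolic and secreted targets, 1 was called lower and none higher (20%, against 33.3% of all genes). Sesn1, a sestrin that restrains mTORC1 (GRCm38 chr10:41809935-41908424), had 51.0, 48.2 and 48.3 CPM in Tespa1+/+ and 27.7, 24.4 and 26.2 CPM in Tespa1-/- libraries. All Tespa1-/- libraries were lower, with a log2 fold change of -0.91 (SE 0.06, adjusted p 2.0e-05 in edgeR), or -0.87 with the length correction. Its relative Sesn2, which is also induced by amino acid shortage, was at 12.5 ± 1.05 and 15.5 ± 0.693 CPM (mean ± SD of 3 libraries each; log2 fold change 0.31, adjusted p 0.0185 in edgeR), a fold under 1.5. Tigar, a phosphatase that turns glucose toward the pentose phosphate pathway, had 19.5, 21.03 and 20.5 CPM in Tespa1+/+ and 30.8, 28.6 and 31.4 CPM in Tespa1-/- libraries. Its groups did not overlap, and its fold of 1.49 was just under the threshold (log2 fold change 0.57, SE 0.06, adjusted p 2.1e-04 in edgeR) with the same value after the length correction (0.57). It passed the fold without Tespa1+/+ replicate 2 (0.60) or 3 (0.59) or Tespa1-/- replicate 2 (0.62). Dcxr, a sugar reductase, was at 0.48 (adjusted p 0.00269 in edgeR) on the log2 scale and at 0.15 (adjusted p 0.231) with the length correction. Gdf15, a secreted stress cytokine, was low in both groups, at 2.10 ± 0.247 and 1.83 ± 0.376 CPM (mean ± SD, n = 3), and its groups overlapped.

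**Figure D3:**
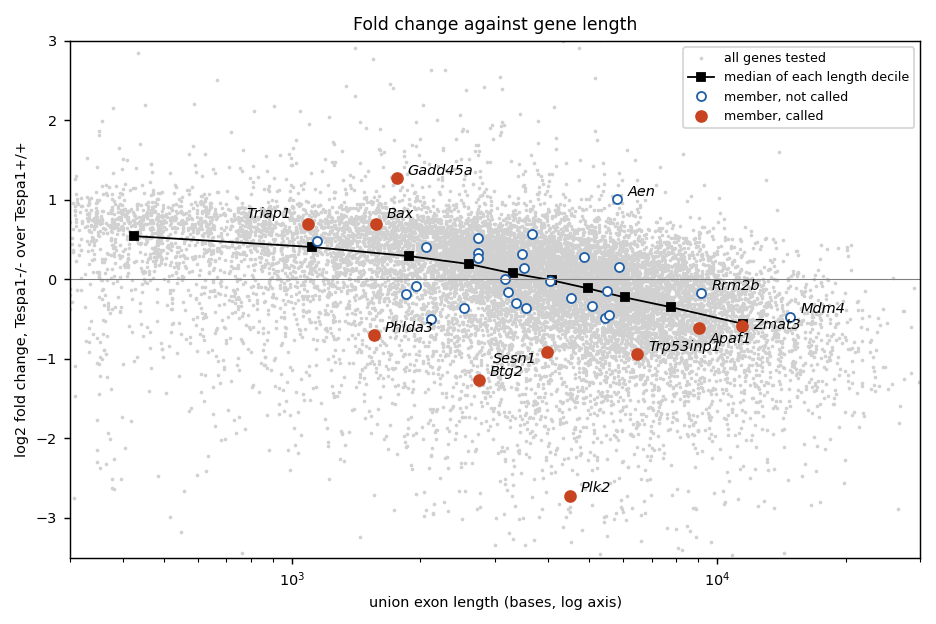
Each grey point is 1 gene tested, with union exon length on a log x axis and the log2 fold change of Tespa1-/- over Tespa1+/+ on the y axis (points beyond the axes are not shown); squares are medians of length deciles, and members are filled where called. Bax and Triap1 lie above the falling median line, Zmat3 close to it and Apaf1 below it, while Plk2, Btg2 and Sesn1 lie well below it and Gadd45a well above.

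**Figure D4:**
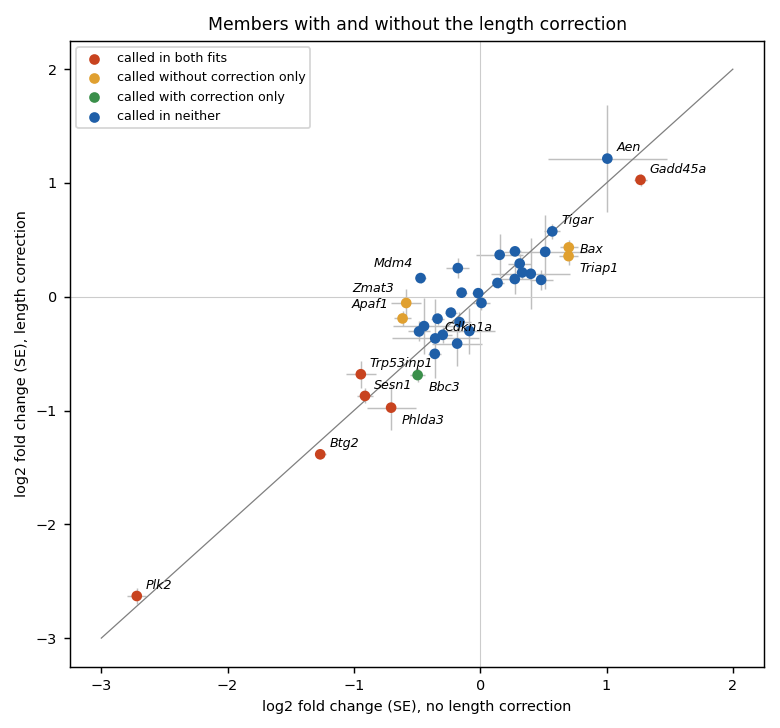
Each point is a member, with its log2 fold change without (x axis) and with (y axis) the length correction and the SE of each as lines; the diagonal marks equal values. Called in both fits are Plk2, Btg2, Sesn1, Trp53inp1, Phlda3 and Gadd45a, and Mdm4 moved furthest, from -0.47 to 0.16.

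Over all roles, 6 of the 10 called members were called in the same direction in both fits (60%, against 54.6% of all called genes), and these were Plk2, Btg2, Sesn1, Trp53inp1 and Phlda3, which were lower, and Gadd45a, which was higher. The first 4 and Gadd45a also kept their call in all other settings tried.

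Other genes of the pathway were then compared. Of 24 upstream kinases and modifiers of p53, 21 were tested, with 1 called higher and 10 lower (52.4%, against 33.3% of all genes). Their median exon length was 5331 bases, against 3663.5 for all genes tested. With the length correction 2 were called higher and 4 lower, where 23.6% of all genes were called (8.32% higher and 15.3% lower). Atm, the kinase that signals double-strand breaks, had 88.4, 89.8 and 82.5 CPM in Tespa1+/+ and 28.2, 24.7 and 25.2 CPM in Tespa1-/- libraries, and fell by 1.74 on the log2 scale (SE 0.07, adjusted p 1.9e-06 in edgeR), or by 1.25 with the length correction. Trim24, a ligase for p53, was at -1.07 and kept its call (-0.68), whereas Ep300, an acetyltransferase co-activator of p53, went from -1.10 to -0.47, under the fold. Rpl5, a ribosomal protein that can bind Mdm2, was the only one called higher (0.69, or 0.73 with the correction).

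Of 24 further p53 targets, 19 were tested, with 1 called higher and 5 lower (31.6%, against 33.3% of all genes). With the length correction 0 and 5 were called, where 23.6% of all genes were. The largest fall was that of Lif, a cytokine gene, from 20.6 to 4.34 CPM (log2 fold change -2.25, adjusted p 7.9e-06 in edgeR). Pml, the organiser of nuclear bodies, was at -1.13 and Slc19a2, a thiamine transporter, at -0.78, and both kept their call with the length correction. Rps27l, a ribosomal protein paralogue, rose by 0.66 but was at 0.23 (adjusted p 0.0781) with the correction.

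Because p21 is known to repress genes of G2 and mitosis, 14 such genes were compared too. Plk1 and Aurka were called higher (log2 fold changes 0.66 and 0.61) and Mki67 lower (-0.72), and the median was 0.25; 21.4% of the list was called, against 33.3% of all genes. With the length correction none of the 14 was called by edgeR at the fold over 1.5, where 23.6% of all genes were called. The corrected list median was 0.22, beside 0.02 for all genes. By p alone in edgeR, 11 of them had an adjusted p under 0.05 and 11 an unadjusted p under 0.05. Of those with the adjusted p, Mki67 was lower (-0.25). Plk1 (0.48), Aurka (0.47), Birc5, Ccnb1, Ccnb2, Cdc20, Cdc25c, Cdk1, Top2a and Cenpf were higher. Top2a and Cenpf had been lower without the correction (-0.24 and -0.49).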

How the data were processed

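RNA of irradiated LSKs was sequenced in 3 Tespa1+/+ and 3 Tespa1-/- samples (poly-A selection, stranded paired-end libraries). Per the labels, the authors aligned reads to GRCm38 with HISAT2. The table deposited by the authors holds raw read counts and FPKM per gene, and the strand setting of counting was not given in the sources used here. The members and lists were chosen with earlier results of these data known. Counts as deposited were tested with edgeR 4.0.16 (filterByExpr, TMM, quasi-likelihood F-test, Benjamini-Hochberg adjustment over 15332 genes; R 4.3.3), and genes were called at a fold over 1.5 with adjusted p under 0.05. The SE is the log2 fold change over the root of F. The length correction fitted, per library, a loess curve (span 0.5) of log2 CPM deviation on union exon length (GENCODE annotation of GRCm38), used as an offset; it was centred after values were seen. DESeq2 1.42.0 and limma 3.58.1 on log2 FPKM were alternatives. The calling steps were tried on simulated data in which far fewer genes differed than here, so that trial does not measure error rates in these data. Named genes are all members and, of each pathway list, the 3 called genes with the largest rise and the 3 with the largest fall with a mean count of 100 or more and groups that did not overlap. Totals ranged from 12856630 to 30576981 counts; intervals cover counting error only. Same-numbered libraries were not treated as pairs.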

Additional observations from a re-analysis of the deposited data

How the results depend on the processing

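Of the 37 members tested, 20 kept their call and direction in every setting, as did Tespa1, and 5 of the 10 called members did. Against 3 called higher and 7 lower, an adjusted p with no minimum fold gave 9 and 15, limma on log2(FPKM + 1) 1 and 4, and leaving out 1 library 3 to 4 and 4 to 7, the fewest lower without Tespa1-/- replicate 2. In these settings, in this order, 63.3%, 21.2% and 31.2% to 32.3% of all genes were called, against 33.3% in the main fit. The length correction gave 1 higher, as did the correction on the length implied by count and FPKM, and 3 without its centring, which was chosen after seeing the data. These fits called 23.6%, 25.1% and 25.3% of all genes. Same-numbered libraries deviated together only weakly (r 0.046, 0.011 and 0.060), though each correlated best with its own number. The replicate block gave 3 higher and 6 lower, with Zmat3 at -0.58, and with the length correction 2 and 6. Of all genes, 32.4% were called with the block and 22.8% with the block and the length correction. Directions reversed for Ppm1d at -0.091 (total counts), -0.014 (at least 10 counts), -0.082 and -0.089 (limma, pseudocounts 1 and 0.1), -0.054 (length correction), -0.11 (implied length), -0.056 (length correction with replicate block) and -0.0386 to 0.0548 (leaving out 1 library). In the length correction, the implied-length one, the one with replicate block and the uncentred one, Trp53 was at 0.0312, 0.0857, 0.0304 and 0.12, Mdm4 at 0.16, 0.17, 0.16 and 0.25, and Rrm2b at 0.25, 0.0652, 0.25 and 0.34. Xpc was at 0.0357 (length correction), 0.0353 (with replicate block) and 0.12 (uncentred), Pidd1 at 0.0946 (implied length) and Zmat3 at 0.0313 (uncentred). Leaving out 1 library, Trp53 ranged from -0.0573 to 0.0157, Perp from -0.24 to 0.0731 and Pmaip1 from -0.0035 to 0.76. Total counts moved the median of all genes by -0.101 on the log2 scale. Beyond the length terms, the cause was not tested. Depth limits Eda2r, Fas, Phlda3, Perp and Gdf15, with few counts per library.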
